A study of Schmidtea mediterranea with 89 samples.

Results

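In 1 of 5 culture experiments on planarian stem cells, 144 of 36035 identifiers were read at a level of at least 4 CPM (counts per 1000000) with planarian extract in the well, and stayed under 1 CPM in every group that had none. Planarians such as Schmidtea mediterranea rebuild missing tissue from neoblasts, adult stem cells that divide and give rise to the animal's other cell types. SiRNeoblasts are neoblasts that were sorted live by a stain of nuclear DNA. A tissue extract brings soluble material of many cell types to a culture and may bring RNA of its own. The labels do not say how the extract was made or whether it was washed off before lysis. RNA from the cultured cells and RNA from the extract therefore cannot be told apart in the libraries with extract.

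The series holds 89 libraries in 30 groups of 3, except for 2 libraries of the polyacrylamide gel at 3 days. All cells were wild-type SiRNeoblasts, and all cultures used a serum-containing medium. In experiment 5, cells were kept for 1, 3 or 7 days in U-bottom wells with planarian extract (U + extract), in U-bottom wells without it (U) or on flat plates without it (flat), or were lysed uncultured. The tables without extract hold AggreWell microwell plates against flat plates at 1 day (experiment 2), aggregates against non-aggregating cells at 2 days (experiment 1), and, each with flat plates and uncultured cells, feeder layers of the mouse embryonic fibroblasts MEF or the human foreskin fibroblast line HFF1 at 1 and 3 days (experiment 4) and U wells or a 100 Pa polyacrylamide gel over 1 to 3 days (experiment 3). The labels do not state that the libraries of a group are separate cultures or animals. Every p-value therefore covers library-to-library spread alone, which may be technical. In bulk RNA, fewer cells that carry a transcript and less of it per cell cannot be told apart.

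The members were chosen by their measured levels in experiment 5. CPM were taken after leaving out the 4 most abundant identifiers, which held 38.8% to 71.1% of a library's counts in that experiment. A member had a mean under 1 CPM in each of the 7 groups without extract, a mean of at least 4 CPM in at least 1 of the 3 groups with extract, and more than 2 CPM in at least 2 of that group's 3 libraries. A limit of 200 had been set on the list and was not reached. Just inside the limit of 4 CPM stood SMED30016696 at 4.00 CPM, and just outside it SMED30031750 at 3.99 CPM. Just under the limit of 1 CPM stood SMED30023836, whose highest group without extract was at 0.982 CPM, and just above it SMED30018180 at 1.001 CPM. Of the 144 members, 86 reached at least 0.5 CPM in some group without extract, and a further 63 identifiers passed 4 CPM on 1 library only. The levels in experiment 5 that follow describe the choice and support nothing by themselves. The files pair the identifiers with no gene names or sequences, so roles cannot be given.

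The same rule was run with each other arm of experiment 5 in the place of the extract libraries. It found 144 identifiers for U + extract, 25 for U, 10 for flat and 31 for uncultured cells, the last with 1 group where the others have 3. With a limit of 0.5 CPM for the other arms it found 58 for U + extract, 8 for U, 3 for flat and 11 for uncultured cells. The count for flat was 5 without flat replicate 1 at 1 day and 6 without replicate 2. Each arm thus had identifiers that met the rule, and U + extract had the most. Counts outside the 4 identifiers ran from 5235314 to 14470679 with extract, from 1372794 to 9959978 in U, from 6477913 to 11774525 on flat plates and from 8580180 to 16132149 in uncultured cells. The part of depth in these numbers was not tested.

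The members were almost wholly a set of the seventh day. At 7 days 136 met the rule, against 6 at 3 days and 2 at 1 day, and 1 of those at 7 days also averaged over 4 CPM at 1 day. Summed over all members, the level with extract was 27.9, 61.1 and 58.9 CPM at 1 day, 73.8, 118 and 59.4 CPM at 3 days, and 762, 965 and 703 CPM at 7 days. In U wells at 7 days the sum ran from 47.4 to 57.2 CPM, on flat plates at 7 days from 23.7 to 53.3 CPM, and in uncultured cells from 18.5 to 34.0 CPM. All 3 libraries with extract at 7 days stood above every other library of the experiment. The mean sum with extract was 4.05 times that of U at 1 day, 5.21 times at 3 days and 15.8 times at 7 days. Without extract the sums were also highest at 7 days in both culture formats.

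**Figure D1:**
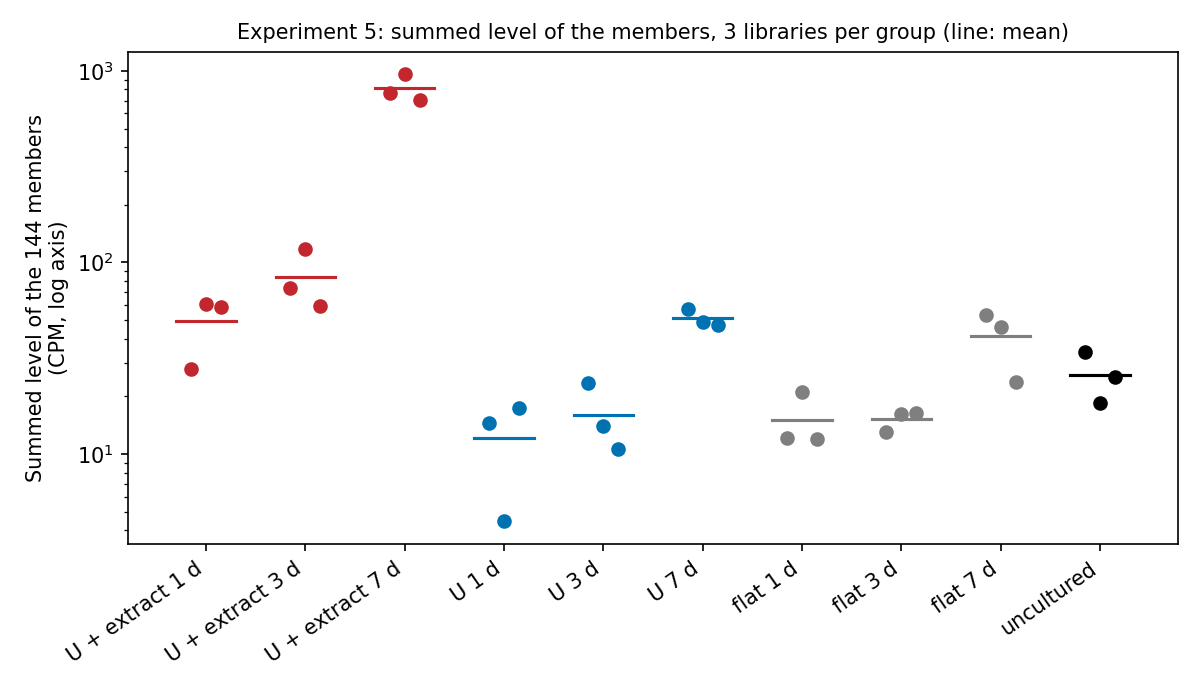
Summed level of the 144 members in each library of experiment 5, in CPM on a log axis; points are libraries, lines are group means (n = 3). The 3 libraries of U + extract at 7 days lie between 703 and 965 CPM, and the 21 libraries without extract between 4.45 and 57.2 CPM.

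At 7 days the 136 members had group means between 4.00 and 12.7 CPM, with a median of 5.46 CPM. The identifier with the highest mean, SMED30034442, was at 0, 26.5 and 11.5 CPM with extract (0, 149 and 74 counts), a mean of 12.7 ± 13.3 CPM (SD, n = 3). Its mean in U at 7 days was 0.236 CPM, and 1 of the 21 libraries without extract held a count of it. The next, SMED30027363, was at 10.2, 18.0 and 7.31 CPM, a mean of 11.8 ± 5.51 CPM (SD, n = 3), against a mean of 0.459 CPM in U at 7 days. SMED30034442 thus rests on 2 of 3 libraries, while SMED30027363 was above 7 CPM in all 3. Their ratios over U were 53.8 and 25.8.

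Earlier with extract, few of these 136 reached 1 CPM. They were at 0 counts in all 3 libraries in 76 cases at 1 day and in 57 cases at 3 days, and in 43 cases at both. At least 1 CPM was reached by 11 at 1 day and by 16 at 3 days, together 25 identifiers. These are 8.09% and 11.8% of the 136, against 1.73% at 1 day and 3.52% at 3 days of all 11766 identifiers that were under 1 CPM in every group without extract. The 11766 had no level to pass with extract, so the difference in shares is a description. From 1 to 3 days the mean was higher in 56 of the 136, lower in 37 and 0 on both days in 43. At 7 days, 37 of them were at 0 counts in U wells, and 3 had no count in any of the 21 libraries without extract.

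The few members of the earlier days behaved differently from each other. SMED30026458 was at 0.944, 10.7 and 6.84 CPM with extract at 1 day, and had group means of 1.37 CPM at 3 days and 0.689 CPM at 7 days. SMED30007348 was at 0.539, 0.213 and 16.2 CPM at 1 day, so that 1 library made its mean of 5.64 CPM there, and at 10.7, 4.62 and 13.5 CPM at 7 days, the day on which it met the rule. At 3 days, SMED30024640 was at 0, 14.8 and 6.49 CPM and SMED30015378 at 8.42, 5.46 and 2.29 CPM. At 7 days both were at 0 counts in 2 of the 3 libraries with extract, while SMED30024640 was at 8.71 CPM in replicate 2. U at the same day held no count of SMED30026458, SMED30024640 or SMED30015378. Set against 3 counts over the U group, their means with extract were at least 41.4-fold, 55.9-fold and 42.4-fold higher. These bounds cover counting error in U alone. The rule chose the means with extract, and the bounds leave out the spread between those libraries.

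The 3 libraries with extract at 7 days rarely showed the same members together. Of the 136, 31 were above 2 CPM in all 3 libraries and 105 in 2 of 3. A library with no count occurred for 58 members, in replicate 1 for 24, in replicate 2 for 18 and in replicate 3 for 16. The highest library held more than the other two together in 116, and it was replicate 1 for 42 members, replicate 2 for 61 and replicate 3 for 33. The median coefficient of variation (SD over mean, n = 3) was 89.0%. Without replicate 1, 2 or 3 of this group, 107, 84 and 116 identifiers met the rule, of which 73, 58 and 73 were members. Above 2 CPM were 97, 110 and 98 of the 144 members in replicates 1, 2 and 3, and 0 to 7 in libraries without extract, as the rule requires.

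Such scatter was not confined to the members. Among all 6251 identifiers whose mean with extract at 7 days lay in the same range of CPM, 25.1% had a library at 0 counts and the median coefficient of variation was 83.9%. In the same range, 4981 identifiers in U at 7 days had 14.3% with a library at 0 and a median coefficient of variation of 68.1%, and 4220 on flat plates at 7 days had 10.8% and 62.5%. Uncultured cells had 0.171% of 3505 identifiers with a library at 0 and a median coefficient of variation of 33.9%. Members had libraries at 0 in 42.6%, which the rule itself allows. The deposited counts behind the 136 members were small, with a median of 36 and a highest of 149 among values above 0, and 58 of the 408 values were 0. The table also holds 36475 values of 2 against 11067 values of 1, and 65.4% of its non-zero values of 20 or less are even, which limits the precision of low counts. No source used here tells how these whole counts arose.

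**Figure D2:**
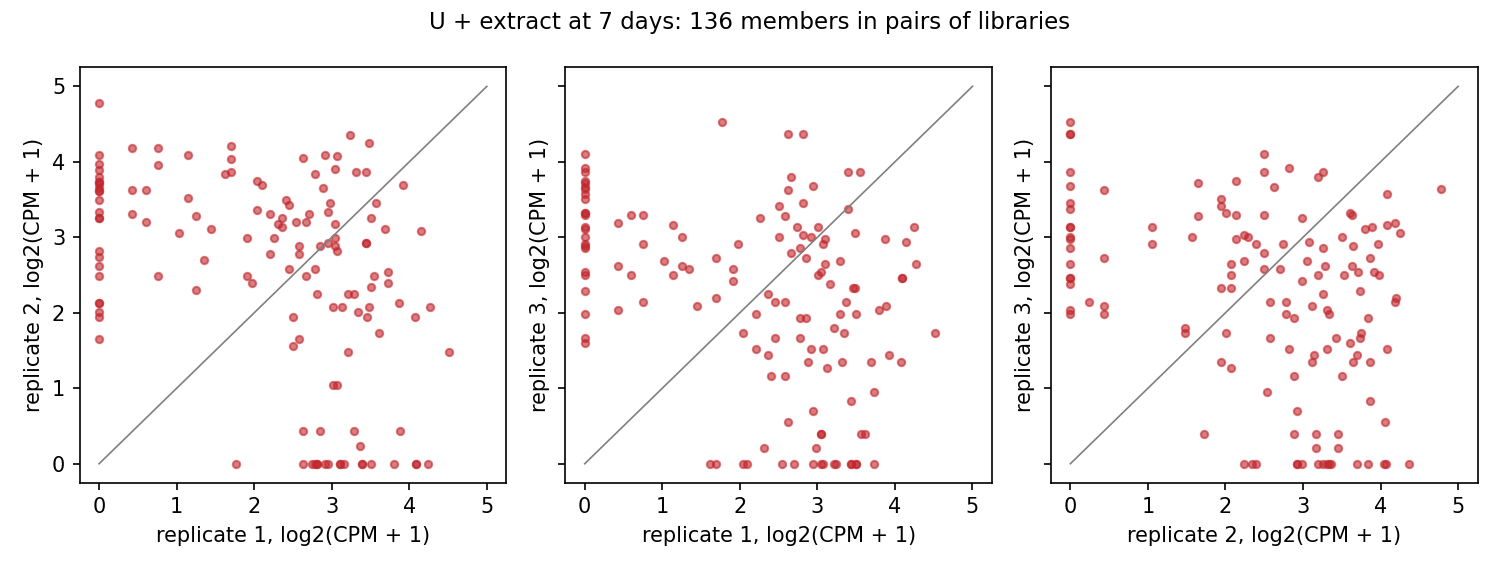
The 136 members that met the rule at 7 days with extract, 1 point each, in the 3 pairings of the libraries on log2(CPM + 1) axes; the grey line marks equal levels. Points along the axes are the 58 members with no count in 1 library, and 31 members are above 2 CPM in all 3.

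The choice can also be read in a library that took no part in it, although that library belongs to the same group. With 2 of the 3 libraries at 7 days choosing (both above 2 CPM, mean of at least 4 CPM, other arms below 1 CPM), 99, 76 and 108 identifiers were read in replicate 1, 2 and 3. In the library left out, 26, 22 and 29 of them were above 2 CPM, which is 26.3%, 28.9% and 26.9%. Of all 11766 identifiers under 1 CPM in the other arms, 7.59%, 8.01% and 6.54% were above 2 CPM in those libraries. The chosen identifiers were thus above 2 CPM at a higher share than all identifiers under the limit, and most of them were not above it. They had passed 2 CPM in 2 libraries of the same group, and the 11766 had no such condition. The higher share is therefore a description and supports nothing about the members. In the left-out library 51, 33 and 39 of the chosen identifiers had no count at all. The same reading for U at 7 days gave 4 of 17, 5 of 23 and 3 of 23 identifiers, in sum 19.0%, against 4.34%, 3.28% and 3.73% of 10657. In sum the extract libraries gave 77 of 283, or 27.2%, where an identifier chosen with several pairs is counted each time.

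**Figure D3:**
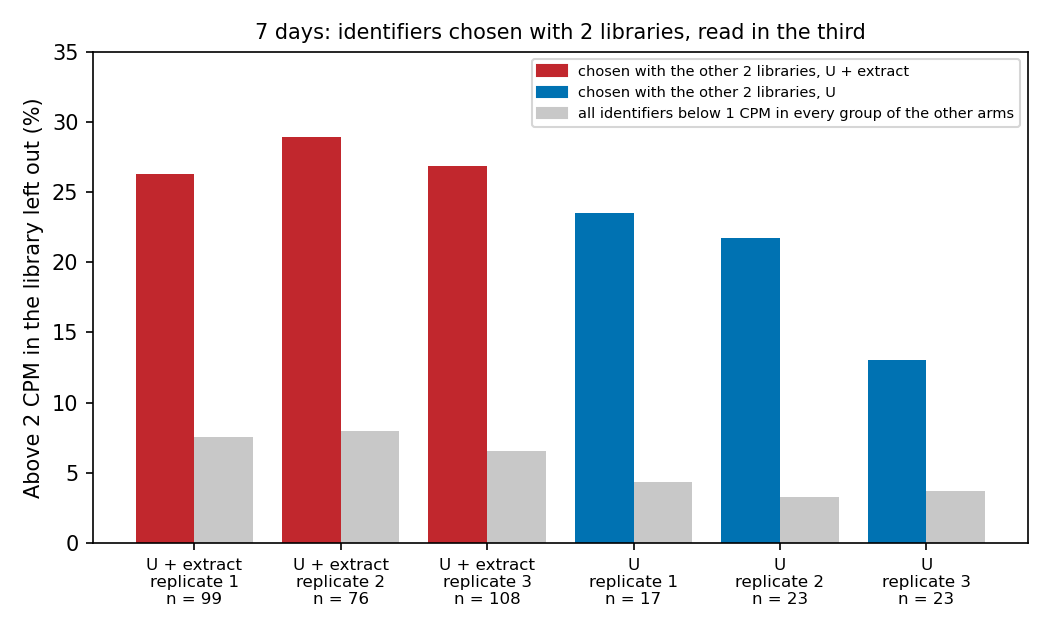
Percent of identifiers chosen with 2 of the 3 libraries of a 7-day group that were above 2 CPM in the third, for U + extract and for U; grey bars give all identifiers below 1 CPM in every group of the other arms. The 3 extract libraries lie at 26.3% to 28.9%, against 6.54% to 8.01% for all identifiers.

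In the fit of all groups of experiment 5 (edgeR quasi-likelihood test, adjusted over 24174 identifiers), no member was called between U + extract and U. At 7 days 0 of 121 members tested were called and 36 had an unadjusted p under 0.05, while 6.01% of all identifiers were called, 227 higher and 1225 lower with extract. At 3 days 0 members were called, with 19 at an unadjusted p under 0.05, against 2.86% of all identifiers called. At 1 day 0 members were called, with 11 at an unadjusted p under 0.05, against 1.9% of all identifiers called. With RLE scaling the calls over all identifiers at 7 days were 493 higher and 520 lower, and still 0 members. DESeq2 called 1 of 142 members at 1 day, 1 of 142 at 3 days and 1 of 56 at 7 days, against 5.94%, 8.75% and 14.4% of all identifiers it tested. The member means at 7 days were higher with extract in 141 of 144, a direction that the rule fixes. The rule used these libraries, so nothing is read from the calls of this fit.

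The levels also depend on the scale. Relative to counts outside the 4 identifiers, the TMM scaling of edgeR put a factor of 0.608 to 0.616 on the extract libraries at 7 days, against 0.768 to 0.992 on U at 7 days and 1.04 to 1.06 on uncultured cells, so levels on that scale are higher with extract. On TMM effective library sizes 314 identifiers met the rule, 128 of them members. With no identifier left out before scaling 29 met it, 1 of them a member. The share of counts in the 4 identifiers was 65.7% to 70.6% with extract at 7 days and 62.5% to 69.0% in U at 7 days. Libraries with extract at 7 days had 19726 to 20869 identifiers detected, against 19477 to 21221 in U at 7 days. The ranges overlapped on both of these measures, while those of the TMM factors did not. The part of scaling in the members' levels was not tested.

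Most members were read in cells that never met extract. In the 59 libraries of experiments 1 to 4, 137 of 144 members (95.1%) had a mean of at least 1 CPM in at least 1 of 20 groups, and 60 (41.7%) of at least 4 CPM. Among the 11766 identifiers under 1 CPM in every group of experiment 5 without extract, 61.9% reached 1 CPM and 15.9% reached 4 CPM there. Unlike the members, these had no level to pass in any group, and 627 of them had no count in any of the 20 groups. The higher shares of the members are therefore a description. The label of the set therefore holds within experiment 5 and not across the series. Of the identifiers found for the other arms, 24 of 25 for U, 10 of 10 for flat and 31 of 31 for uncultured cells also reached 1 CPM in experiments 1 to 4. Those experiments repeat these 3 conditions but hold no extract, so the counts are not like for like. Of the 31 for uncultured cells, 30 reached 1 CPM in uncultured cells of experiments 3 and 4, but 12 in experiment 1 and 9 in experiment 2. Only 7 members stayed below 1 CPM in all 20 groups, and none was at 0 counts in all. Of these, SMED30020200 was at 0, 13.0 and 7.62 CPM with extract at 7 days and SMED30022913 at 13.8, 0.356 and 3.27 CPM, while their highest means in experiments 1 to 4 were 0.777 and 0.912 CPM.

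The groups that held members differed widely. Of the 144, 100 (69.4%) reached 1 CPM on MEF feeder at 3 days, 87 (60.4%) on HFF1 feeder at 3 days, 81 (56.2%) in AggreWell plates, 78 (54.2%) in aggregates, 73 (50.7%) in non-aggregating cells and 58 (40.3%) on the flat plates of experiment 2. The groups of experiment 3 held 17 to 26. Uncultured cells of experiment 4, MEF feeder at 1 day and HFF1 feeder at 1 day held 6, 4 and 6. In every group the share of members exceeded that among the 11766, which was 33.5% on MEF feeder at 3 days, 26.0% in AggreWell plates and 2.03% in uncultured cells of experiment 4. Members had passed 4 CPM with extract, while the 11766 had no level to pass anywhere. Shares among identifiers at levels like the members' were not computed by group, so the excess is a description. The highest mean of a member outside experiment 5 lay on MEF feeder at 3 days for 51, in AggreWell plates for 30, in aggregates for 23 and on HFF1 feeder at 3 days for 15. A median member reached 1 CPM in 4 of the 20 groups, 92 did so in 1 to 5 groups, 26 in 6 to 10 and 19 in 11 or more. Depth differed between these groups too. Counts outside the 4 identifiers ran from 3209489 to 8257682 on MEF feeder at 3 days. In uncultured cells of experiment 4 they ran from 18482800 to 29438737. The part of depth in these shares was not tested.

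**Figure D4:**
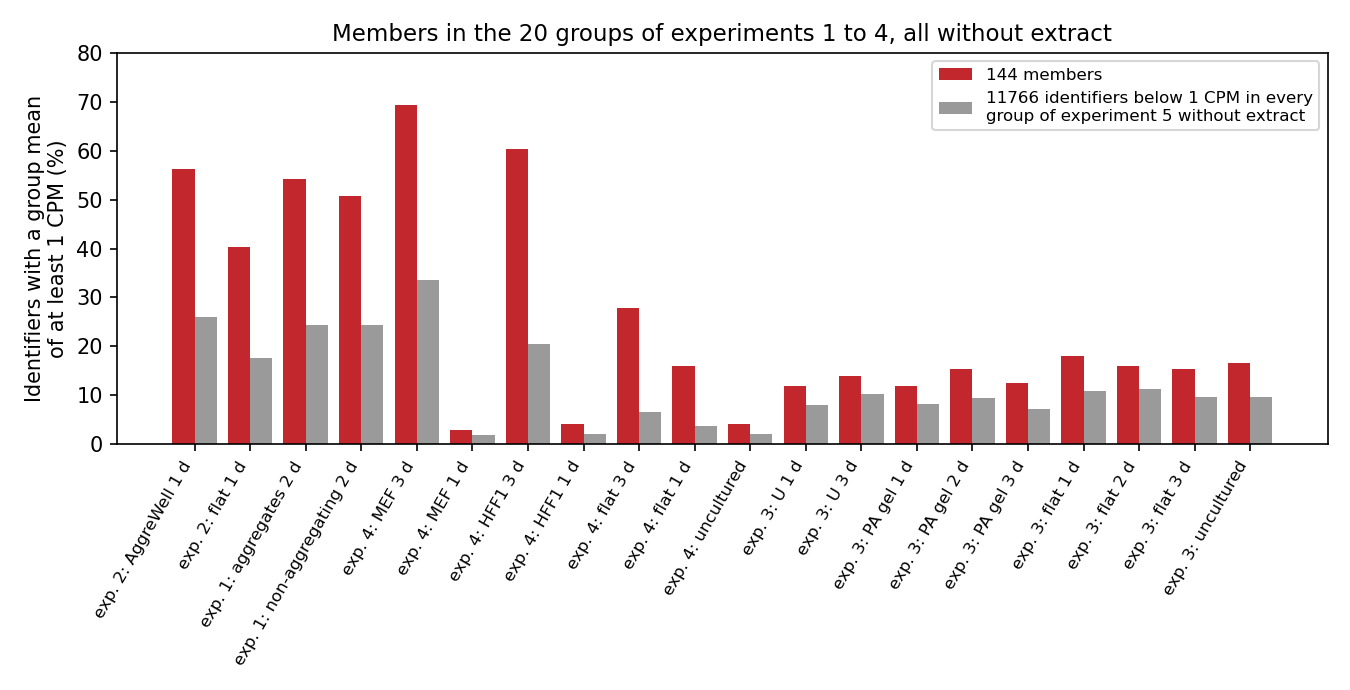
Percent of the 144 members, and of the 11766 identifiers below 1 CPM in every group of experiment 5 without extract, whose group mean was at least 1 CPM in each of the 20 groups of experiments 1 to 4. Members stand highest on MEF feeder at 3 days (69.4%) and lowest on MEF feeder at 1 day (2.78%).

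The libraries on MEF feeder at 3 days differed from each other. Summed over the members, they had 384, 454 and 87.8 CPM in replicates 1, 2 and 3. Their counts outside the 4 identifiers were 3209489, 3464634 and 8257682. Replicates 1 and 2, with the high sums, were thus the shallowest libraries of experiment 4. The part of depth in these sums was not tested. Without replicate 3, 107 members (74.3%) reached 1 CPM on MEF feeder at 3 days, against 43.9% of the 11766, and 139 of 144 reached it in some group. Without the 2 feeder groups at 3 days, 122 of 144 (84.7%) still reached 1 CPM somewhere, against 47.0% of the 11766. RNA of the feeder cells themselves is a further possible source of counts in those groups, and its part was not tested. Without experiment 4 altogether the count was 115 (79.9%), against 42.4%.

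Experiments 1 and 2 shared most of their higher members, and experiments 1 and 4 shared few. At least 4 CPM was reached by 31 members in experiment 1 and 29 in experiment 2, and 21 were shared, 67.7% of the first and 72.4% of the second. Over the 144 members, the highest group means of these experiments had a Spearman rho of 0.768 and a Pearson r of 0.867 on log2(CPM + 1), given as a description across identifiers. Experiment 4 had 26 members at 4 CPM, of which 5 were shared with experiment 1, and rho was 0.0477. The level with extract at 7 days had a rho between -0.0570 and 0.213 with each of experiments 1 to 4. The rule kept these levels in a narrow range, with quartiles of 4.45 and 6.85 CPM. Their median coefficient of variation was 89.0% among the 136 members of that day. With so narrow a range and such scatter, a low rho cannot show whether the orders differ. Identifiers share library and depth within a table, and genes are not independent replicates. No overlap or correlation between experiments was computed over all identifiers, so whether this contrast is particular to the members was not tested. Experiments 1 and 2 hold estimated counts and experiment 4 holds whole counts, and what this adds to the contrast was not tested.

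**Figure D5:**
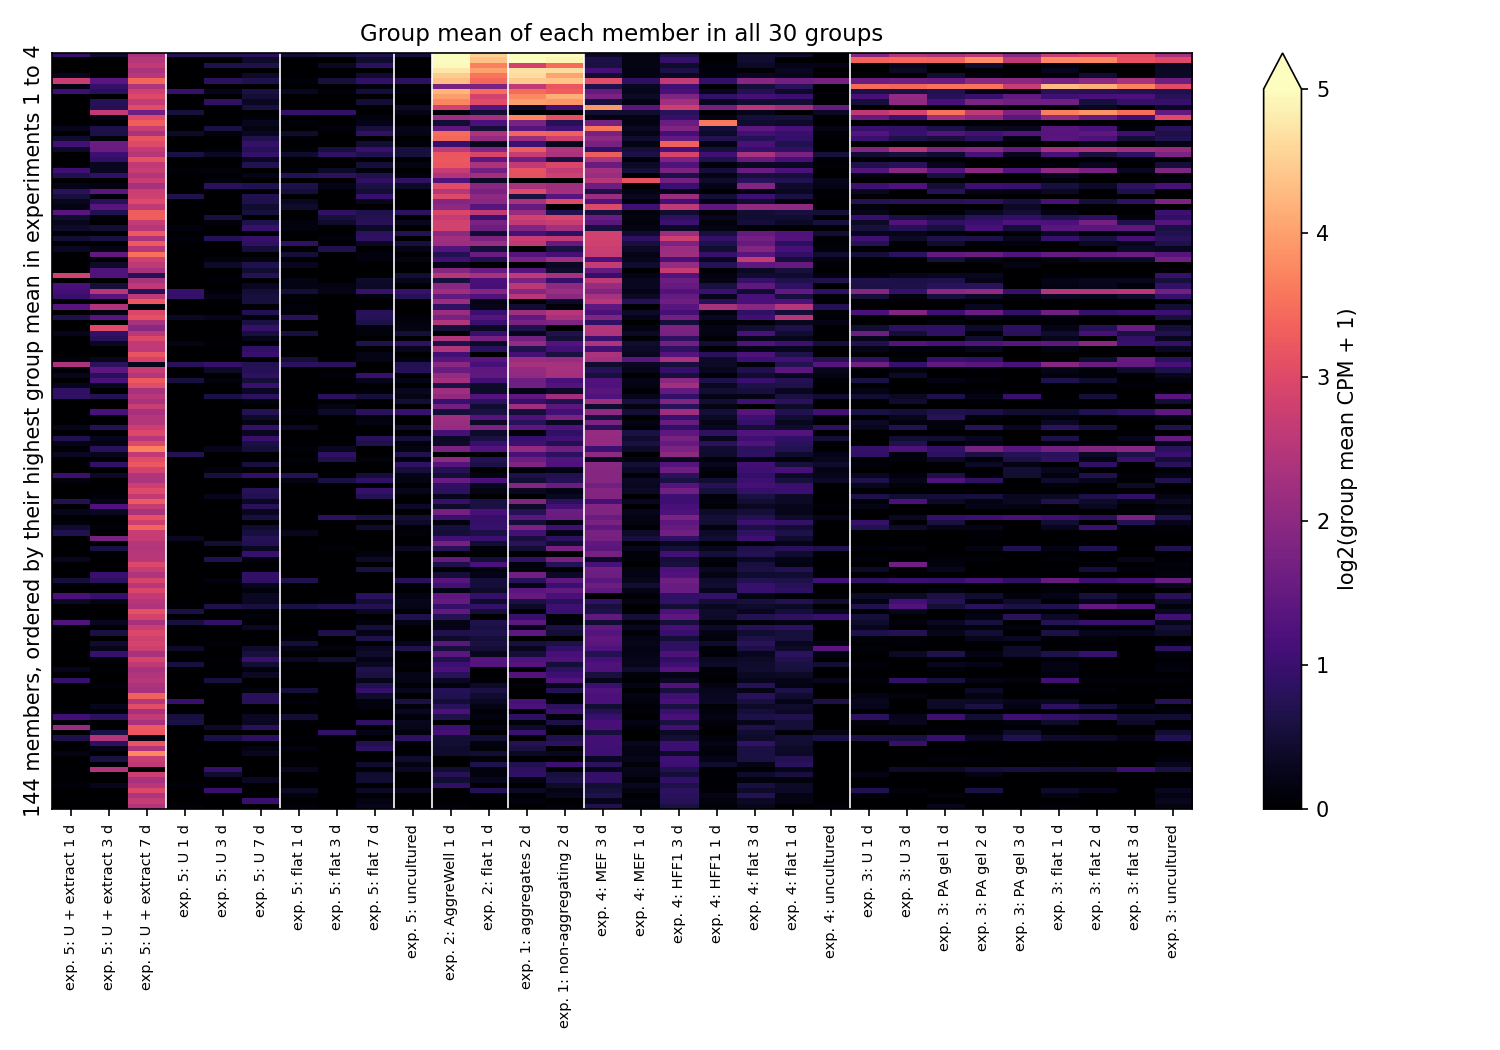
Group means of the 144 members (lines) in all 30 groups (columns), as log2(CPM + 1), with members ordered by their highest group mean in experiments 1 to 4. U + extract at 7 days is filled for 136 members by the rule; AggreWell plates and both groups of experiment 1 carry the uppermost members, and the feeder layers at 3 days carry a broad set at lower level.

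The 2 members with the highest level in experiments 1 to 4 were highest in AggreWell plates. SMED30034218 was at 110, 74.8 and 44.2 CPM in AggreWell plates and at 17.4, 23.0 and 25.5 CPM on flat plates of experiment 2, and the groups did not overlap. Its log2 fold change was 1.87 (SE 0.34). The AggreWell mean had picked this identifier, so its contrast with flat plates is a description and no test is read from it. With extract at 7 days it was at 8.79, 0.356 and 2.95 CPM, against a mean of 0.730 CPM in U. It was also at 58.3, 26.1 and 61.3 CPM in aggregates and at 48.1, 37.6 and 44.1 CPM in non-aggregating cells. SMED30017970 was at 59.5, 30.6 and 26.9 CPM in AggreWell plates and at 11.3, 26.8 and 20.7 CPM on flat plates. With extract at 7 days it was at 1.03, 7.29 and 5.44 CPM. Both were higher in every library of experiments 1 and 2 than in any extract library of the seventh day.

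Tests on libraries that the choice did not use come from experiments 2 to 4. In AggreWell plates against flat plates at 1 day, 6 of 45 members tested were called higher and none lower, and 15 had an unadjusted p under 0.05, while 21% of all 18266 identifiers were called, 11.8% higher. The share of members called higher, 13.3%, was near the 11.8% of all identifiers, and 99 members were too low to be tested. Over all 144, the mean was higher in AggreWell plates for 111, lower for 30 and 0 in both for 3, that is higher in 77.1%, against 53.9% of all identifiers with a count. The median log2 fold change was 1.04 for the members tested and -0.02 for all identifiers tested. Summed levels were 536, 571 and 475 CPM in AggreWell plates against 185, 296 and 272 CPM on flat plates. Among the calls, SMED30017787 was at 4.42, 3.55 and 3.24 CPM in AggreWell plates and at 0, 0.540 and 0.433 CPM on flat plates (log2 fold change 3.68, SE 1.00, adjusted p = 0.0178 in edgeR). SMED30002909 was at 1.91, 17.2 and 6.07 CPM against 0.437, 3.02 and 1.69 CPM, and here the groups overlapped (2.37, SE 0.82, adjusted p = 0.0497 in edgeR). The count of calls rested on single libraries. Leaving out AggreWell replicate 2 gave 1 call and AggreWell replicate 1 gave 8; on the flat side, leaving out replicate 1 gave 1 call and replicate 2 or 3 gave 3.

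Experiment 3 repeated the U-bottom wells without extract. In U against flat at 1 day, 0 of 31 members tested were called by edgeR and 0 had an unadjusted p under 0.05; of all 20949 identifiers 0.00955% were called. DESeq2 gave no member an adjusted p here, and 3 had an unadjusted p under 0.05. At 3 days 1 member was called higher, against 1.08% of all identifiers called, 0.568% higher. That member, SMED30014313, was at 5.18, 2.68 and 0.671 CPM in U and at 0, 0 and 0.690 CPM on flat plates (log2 fold change 3.75, SE 0.92, adjusted p = 0.0408 in edgeR), so the groups overlapped. Leaving out U replicate 1, or flat replicate 1 or 2, ended the call, and another member was called lower without U replicate 1 or 2. Means at 1 day were higher in U for 43 of 144 members (29.9%), lower for 67 and 0 in both for 34, against 32.6% of all identifiers with a count higher. At 3 days they were higher for 48 (33.3%), lower for 44 and 0 in both for 52, against 50.0% of all identifiers higher. The median log2 fold change of the members tested was -0.63 at 1 day and -0.07 at 3 days, against -0.04 and 0.00 over all identifiers tested. The change from 1 to 3 days in U against flat had 0 members called by edgeR, 2 at an unadjusted p under 0.05, and 0% of all identifiers called; DESeq2 was not run on it.

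Time on flat plates gave a different reading in the 2 experiments with uncultured cells. In experiment 4, 46 of 109 members tested rose and none fell on flat plates at 3 days against uncultured cells, with 35 not tested, while 15.8% of all 26107 identifiers were called, 13.7% higher. The median log2 fold change of the members tested was 4.64, against 0.21 over all identifiers tested. The members had been chosen as under 1 CPM in uncultured cells of experiment 5. In uncultured cells of experiment 4 their median was 0.0226 CPM, and 70 of 144 had no count. Members so low there could hardly be called lower. No share was computed among identifiers equally low in uncultured cells, so these calls are a description. Over all 144 members the mean was higher at 3 days for 127 and lower for 16, that is higher in 88.2%, against 61.6% of all identifiers. SMED30006855 was at 3.75, 4.46 and 1.08 CPM on flat plates at 3 days and at 0 counts in all uncultured libraries, at least 69.2-fold higher (adjusted p = 0.00232 in edgeR). SMED30002909 was at 2.23, 2.18 and 1.22 CPM against 0 counts in all, at least 42.0-fold higher (adjusted p = 0.00645 in edgeR). The members were thus near 0 in uncultured cells and low but present after culture without extract. Their summed level was 124, 177 and 53.9 CPM on flat plates at 3 days and 28.6, 21.3 and 25.7 CPM in uncultured cells. The number of calls depended on the uncultured libraries, at 16, 3 and 10 without replicate 1, 2 and 3, and was 25 without flat replicate 2. The counts of experiment 4 hold 71730 values of 2 against 15148 values of 1. Of its non-zero values of 20 or less, 73.6% are even, which limits the precision of low counts and of these folds.

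In the same contrast of experiment 3, 2 of 31 members tested rose and 3 fell, while 41.8% of all 20949 identifiers were called, 18.5% higher and 23.3% lower. SMED30012835 was at 0.684, 1.49 and 2.10 CPM on flat plates at 3 days and at 0, 0.289 and 0 CPM in uncultured cells (log2 fold change 3.79, SE 1.46, adjusted p = 0.0368 in edgeR). SMED30015378, a member of the 3-day extract wells, was at 4.44, 2.94 and 23.2 CPM against 1.25, 2.37 and 1.82 CPM (2.42, SE 0.83, adjusted p = 0.0199 in edgeR), and it had means of 11.7 CPM at 1 day and 13.7 CPM at 2 days on flat plates. Both were above every uncultured library in all 3 flat libraries, and the share of all identifiers so separated was not computed. For SMED30012835 the nearest values, 0.684 and 0.289 CPM, are close to the floor. In those libraries 3 counts are 0.516 and 0.387 CPM. SMED30014313 fell to 0, 0 and 0.690 CPM on flat plates, against 2.66, 1.88 and 3.13 CPM in uncultured cells (adjusted p = 0.00285 in edgeR). SMED30035106 had no count in any flat library at 3 days, against 2.32, 1.04 and 1.28 CPM in uncultured cells, where it was at least 7.55-fold higher (adjusted p = 0.0215 in edgeR). Without uncultured replicate 1 or 3, 0 rose and 2 fell. Over all 144 members the mean was higher at 3 days for 39 and lower for 81, that is higher in 27.1%, against 39.7% of all identifiers with a count. The rise of experiment 4 was not seen in experiment 3, in a table that was made separately; the difference between the experiments was not tested.

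On feeder layers the summed level of the members was higher at 3 days than at 1 day, and edgeR called no member. Summed levels on MEF feeder were 384, 454 and 87.8 CPM at 3 days against 44.4, 34.1 and 33.3 CPM at 1 day, and on HFF1 feeder 227, 253 and 216 CPM against 110, 29.5 and 29.3 CPM. The groups of 3 libraries did not overlap on either feeder. On MEF feeder at 3 days against 1 day, edgeR called 0 of 109 members tested, with 38 at an unadjusted p under 0.05, and 1.57% of all 26107 identifiers. DESeq2 called 53 of 130 members there (40.8%), all higher, against 31.3% of all identifiers it tested, and without MEF replicate 3 at 3 days edgeR called 5 of 124 (4.03%), against 8.67%. On HFF1 feeder, edgeR called 0 members, with 16 at an unadjusted p under 0.05, and 0.0153% of all identifiers, while DESeq2 called 8 of 85 members (9.41%), against 7.46% of all identifiers it tested. Both comparisons were added after the levels had been seen. Member means were higher at 3 days for 142 of 144 on MEF feeder and for 141 on HFF1 feeder, against 76.2% and 77.0% of all identifiers with a count. The scale is shifted here: the median log2 fold change of the members tested was 2.55 on MEF feeder and 1.93 on HFF1 feeder, and that of all identifiers tested was 1.44 and 0.94, so relative to the median identifier they were higher by less than the raw values show.

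Against flat plates at 3 days, which both feeders share, no member was called. On MEF feeder edgeR called 0 of 109 members tested, with 1 at an unadjusted p under 0.05, and 0% of all identifiers. On HFF1 feeder it called 0, also with 1, and 0.00383% of all identifiers, and DESeq2 called 0 of 20 members it tested on MEF feeder and 0 of 24 on HFF1 feeder, against 3.04% and 1.13% of all identifiers. Member means were higher on MEF feeder for 131 of 144 and on HFF1 feeder for 130, against 69.8% and 68.4% of all identifiers. The median log2 fold change was 1.26 for members and 0.63 for all identifiers on MEF feeder, and 0.89 and 0.39 on HFF1 feeder. The changes from 1 to 3 days in feeder against flat had 0% of identifiers called by edgeR on either feeder, with 18 members at an unadjusted p under 0.05 on MEF feeder and 6 on HFF1 feeder, and DESeq2 was not run on them. Higher means on feeders were therefore common to most identifiers and were somewhat more frequent among the members.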

How the data were processed

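The 89 libraries were made by template-switching reverse transcription, PCR and Tn5 tagmentation, per the labels' protocols. The authors deposited 1 table per experiment: estimated counts in experiments 1 to 3 and whole counts in experiments 4 and 5, both without normalization. The submitters' processing notes name kallisto 0.46.2 and R 4.0.5; no source used here gives the transcriptome or any filter. No molecular identifiers are mentioned, so floors cover counting error only.

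CPM per library were computed after dropping the 4 most abundant identifiers, within each table; levels set across tables compare tables made separately. Total counts ran from 3333661 to 42691160 per library. For tests, estimated counts were rounded, identifiers were filtered with filterByExpr, libraries were scaled with TMM, and all groups of an experiment were fitted together with edgeR 4.0.16 (quasi-likelihood F test, two-sided, R 4.3.3; SE is the absolute log2 fold change over the square root of F), with a Benjamini-Hochberg adjusted p threshold of 0.05 over all identifiers tested. DESeq2 1.42.0, RLE scaling, no filter, a replicate block, and leaving out each library were alternatives. No 2 libraries of a group held identical values. The script was tested on simulated data.

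Members and lists were chosen with earlier results of these data known. Named were, for each day with extract, the 2 members with the highest mean, per comparison at most 2 calls in each direction, the 2 highest in experiments 1 to 4, and, after their values were seen, 2 of the 7 members low in every other table. The marker lists matched 0 identifiers, since the files hold no gene names, and the label of the cells could not be checked against markers.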

Additional observations from a re-analysis of the deposited data

Results flagged for a closer look

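Experiment 1 enters no tested comparison here, and both of its groups held members above the limit that 3 counts allow. In aggregates 78 of 144 members had a mean of at least 1 CPM, against 24.4% of the 11766 identifiers that were under 1 CPM in every group of experiment 5 without extract. In non-aggregating cells 73 members did, against 24.3%. Members had passed 4 CPM with extract and the 11766 had no level to pass, so these shares are a description. Their summed level ran from 217 to 656 CPM in aggregates and from 328 to 476 CPM in non-aggregating cells, so the groups overlapped. In groups of 3 libraries no single library was tested as standing apart.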

How the results depend on the processing

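Of 166 alternative values, 126 kept within 1.5 times of the value reported with calls in the same directions, and 40 did not. The number of identifiers that met the rule for U + extract was 29 with none dropped before scaling, 314 on TMM effective library sizes, 58 and 469 with a limit of 0.5 and 2 CPM, 20 with at least 8 CPM, 34 with all 3 libraries above 2 CPM, 7 with 1 CPM as a limit in experiments 1 to 4 too, and 84 to 145 without single extract libraries; without U at 1 day replicate 1 it was 146. The last and the limit in experiments 1 to 4 were chosen after seeing the data. At limits of 0.5 and 2 CPM the other arms gave 8 and 99 (U), 3 and 53 (flat) and 11 and 113 (uncultured); without single libraries they gave 20 to 27, 5 to 11 and 25 to 35.

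For calls among members, DESeq2 gave 1 at 1, 3 and 7 days of U + extract against U, 8 for HFF1 feeder and 53 for MEF feeder at 3 days against 1 day. RLE scaling gave 7 for MEF feeder, and no filter gave 1 at 7 days with extract. Leaving out single libraries gave 0 for U + extract against U on each day, 1 to 8 for AggreWell plates, 0 to 2 for U at 3 days, 2 to 5 and 3 to 45 for flat plates against uncultured cells in experiments 3 and 4, and 0 to 5 for MEF feeder at 3 days against 1 day. The cause of these shifts was not tested. In no comparison did every pair of same-numbered libraries deviate together by a correlation over 0.1, and the main fits used no replicate block. The check cannot show that same-numbered libraries were prepared apart. With a replicate block the calls were 1 for AggreWell plates, 0 for U against flat at 3 days in experiment 3 and 35 for flat plates against uncultured cells in experiment 4, and other counts stayed within 1.5 times.

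The members' counts are low, and a count of 0 in a library with extract at 7 days allows up to 0.533 CPM.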
